A study of Homo sapiens with 4 samples.

Results

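The NRF2 antioxidant response was followed in LNCaP cells, an androgen-sensitive human prostate cancer line, through 10 genes chosen by name. They were NFE2L2 and KEAP1 (the regulators), GCLC and GCLM (glutathione synthesis), TXN, TXNRD1 and SRXN1 (the thioredoxin system), HMOX1 (heme breakdown), NQO1 (quinone reduction) and OSGIN1 (a growth inhibitor). All 10 were found by Entrez Gene identifier among the 19801 genes of each library, and all 10 were among the 14626 genes whose RPKM (reads scaled to exon length and sequencing depth) reached 1 in 1 library or more. The study transfected LNCaP cells for 24 h with an empty vector or with AR1-651, a plasmid for a truncated receptor without its ligand-binding domain, and then left them without or with AIL for 12 h. AIL is ailanthone, a plant quassinoid. Each of the 4 conditions (empty vector or AR1-651, each with or without AIL) was sequenced as 1 RNA-seq library. All 4 are transiently transfected cultures of 1 cell line, and the share of cells that carried a plasmid is not given in the sources used here. The comparisons ask how AIL and AR1-651 each altered the transcripts of the pathway. Since no condition had a second library, no p-value is given, and every difference is a description of these libraries.

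NRF2, the product of NFE2L2, is a transcription factor that pairs with small MAF proteins on antioxidant response elements. In unstressed cells KEAP1, the adaptor of a CUL3 ubiquitin ligase, binds NRF2 and keeps it short-lived, and electrophiles or oxidants that modify KEAP1 cysteines let NRF2 accumulate and switch on genes for glutathione, thioredoxin, NADPH, heme and quinone metabolism. The control acts mostly on NRF2 protein, which RNA-seq does not measure. Brusatol, another quassinoid, is known to lower NRF2 protein.

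The letters of the antioxidant response element core, TGACNNNGC on either strand (N is any base), were sought in RefSeq promoter windows of 250 bases before to 50 bases after each gene start (GRCh38.p14), to show which of the 10 gene starts carry the core. Of 35116 windows of this length, 4687 (13.3%) held the motif. The table had 12 windows for 9 of the 10 genes. It gave none for HMOX1, and 4 windows of 3 genes (GCLM, TXNRD1 and KEAP1) held the letters. The 6 matches are shown 5′ to 3′ along the strand of the gene, with the motif in capitals and 10 bases on each side. The motif began 34 bases before the start of GCLM on the opposite strand, 99 bases (same strand) and 8 bases (opposite strand) before one start of TXNRD1, 102 bases before its other start (opposite strand), and 54 bases (same strand) and 31 bases (opposite strand) before the start of KEAP1.
GCLM chr1:93909446-93909474 (−): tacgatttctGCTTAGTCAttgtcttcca
TXNRD1 chr12:104215670-104215698 (+): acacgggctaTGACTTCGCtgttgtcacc
TXNRD1 chr12:104215761-104215789 (+): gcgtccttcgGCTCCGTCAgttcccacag
TXNRD1 chr12:104286920-104286948 (+): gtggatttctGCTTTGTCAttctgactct
KEAP1 chr19:10502807-10502835 (−): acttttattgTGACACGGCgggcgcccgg
KEAP1 chr19:10502784-10502812 (−): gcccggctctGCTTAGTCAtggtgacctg
A match is a run of letters and no evidence of binding. The other members with a window, NQO1 among them, did not hold these letters in it. Sequence outside the windows was not searched, so a window without the letters does not show that a gene lacks the element.

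The deposited values were RPKM, and the size of the step between low values put the depth at an estimated 4810000 to 5620000 mapped reads per library. Genes with RPKM of at least 1 numbered 12787 to 13747. Of the summed RPKM, ribosomal protein genes took 33.0% in the library labelled AR1-651 and 22.3 to 25.5% in the others. The luminal prostate markers FOLH1 (RPKM 425 to 839.9) and HOXB13 (97.2 to 236) were present in all libraries, and of 11 markers of other cell types 9 were below 1 in all, the exceptions being CD68 (8.31 to 12.2) and COL1A1 (up to 4.59). The label AR1-651 was checked on 2 androgen-regulated genes. KLK3 had RPKM of 287, 303, 1442 and 582 (empty vector without and with AIL, then AR1-651 without and with AIL, the order used below), and TMPRSS2 had 36.7, 16.6, 276 and 65.1. Both genes were highest in the library labelled AR1-651. The construct's own transcript was not checked here, so those libraries are named by their label throughout.

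NQO1 is the quinone reductase often used as the readout of NRF2. It was the only one of the 10 genes that was at least 2-fold lower with AIL in both backgrounds. Of all genes, 2.93% were lower in both by that measure. The RPKM of NQO1 was 166 with empty vector, 82.4 with empty vector + AIL, 175 in the library labelled AR1-651 and 70.5 in the library labelled AR1-651 + AIL. Both libraries with AIL lay below both libraries without it. In bulk RNA, fewer cells with the transcript and less of it per cell cannot be told apart. The ratio of RPKM with AIL to RPKM without was 0.497 in empty vector cells (exact 95% interval 0.463 to 0.533) and 0.403 in the cells labelled AR1-651 (0.376 to 0.431). These intervals, here and below, come from read numbers estimated from RPKM, transcript length and depth (2463, 1153, 2808 and 1153 reads for NQO1) and cover counting error only, not the variation between cultures. Differences are given below on the scale of log2(RPKM + 1), where 1 is a 2-fold difference and where low values are drawn together. On this scale NQO1 was 1.00 lower in empty vector cells, just past the threshold, and 1.30 lower in the cells labelled AR1-651, and 8.99% and 2.97% of all genes had a lower value in those comparisons.

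Over the whole pathway the difference with AIL was small and leaned downward. In empty vector cells 0 of the 10 genes were at least 2-fold higher and 1 was at least 2-fold lower, whereas 9.53% of all genes were higher and 9.03% lower by that measure. In the cells labelled AR1-651, 1 of 10 was higher (NFE2L2) and 1 lower (NQO1), against 14.9% of all genes higher and 5.74% lower. The median difference of the 10 genes was -0.28 in empty vector cells and -0.27 in the cells labelled AR1-651, beside -0.02 and 0.13 for all genes. With median-ratio scaling all genes split as 1582 higher and 1261 lower in the second comparison, in place of 2184 and 839, and the median of all genes shifted by -0.15. The median of the 10 genes was then -0.47, beside -0.03 for all genes. With the trend of all genes with transcript length and GC content removed, it was -0.41 beside -0.03. The plot of differences shows that 8 of the 10 lay below 0 with AIL in empty vector cells and 6 of 10 in the cells labelled AR1-651. Above 0 were 2 and 4 of the 10, against 48.3% and 56.2% of all genes.

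**Figure D1:**
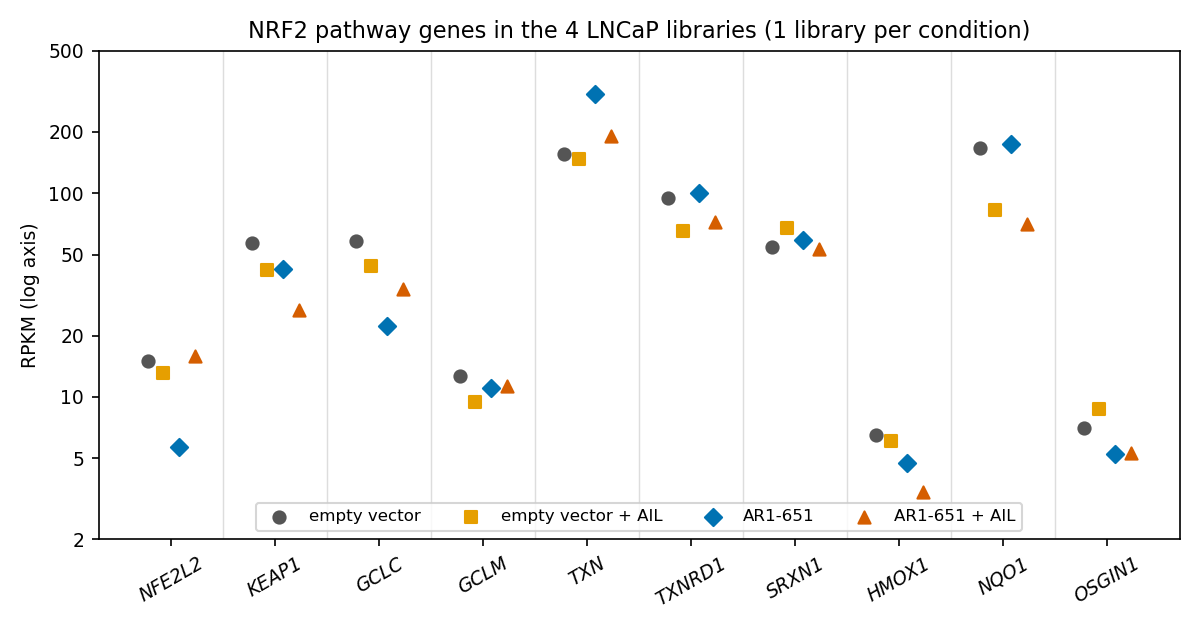
RPKM (log axis) of the 10 NRF2 pathway genes, 1 point per library and no error bars because each condition is 1 library. NQO1 is lower in both libraries with AIL, NFE2L2 is lowest (5.68) in the library labelled AR1-651, and TXN is highest (306) there.

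**Figure D2:**
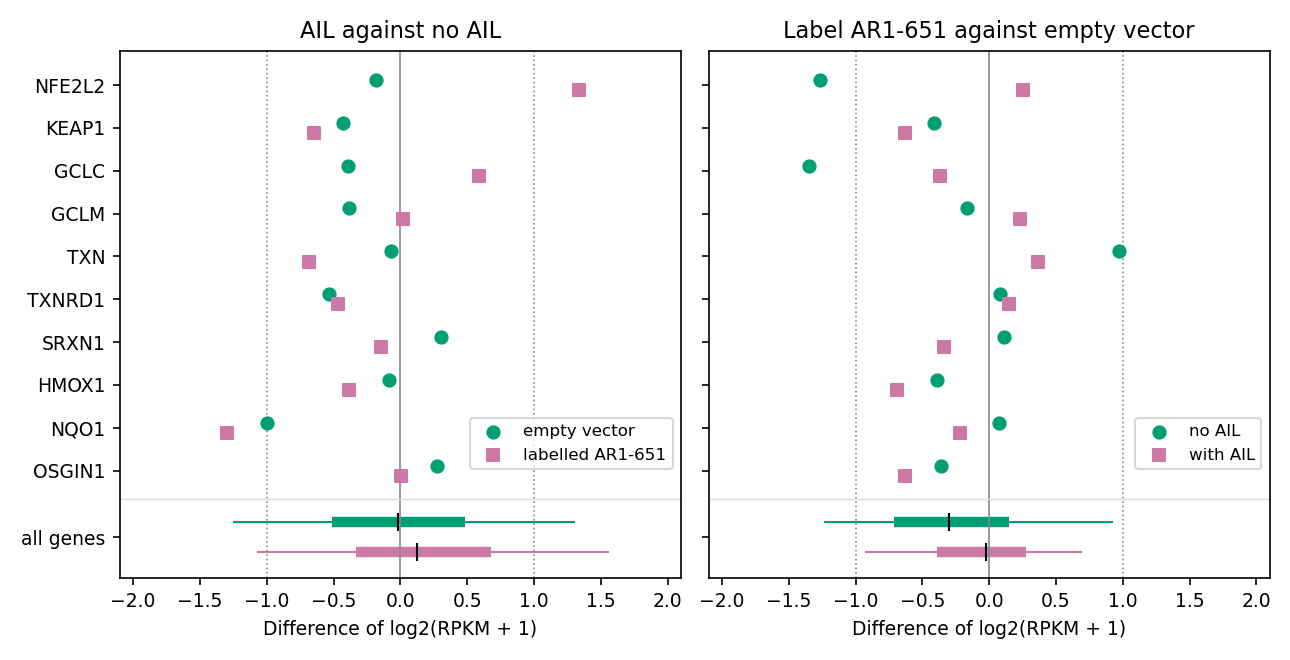
Difference of log2(RPKM + 1) for each gene, with AIL against no AIL on the left and with the label AR1-651 against empty vector on the right. Points are single comparisons of 2 libraries, dotted lines mark 2-fold, and the bars at the bottom give the 5th to 95th (thin) and 25th to 75th percentiles (thick) and the median (tick) of all 14626 genes. NQO1 passes the lower line on the left in both backgrounds, and NFE2L2 and GCLC pass it on the right without AIL.

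Among the regulators, NFE2L2 passed 2-fold with AIL in the cells labelled AR1-651 and not in empty vector cells, a contrast between backgrounds that was not tested. Its RPKM was 15.03 with empty vector, 13.2 with empty vector + AIL, 5.68 in the library labelled AR1-651 and 15.9 in the library labelled AR1-651 + AIL. Thus 3 libraries lay close together and the library labelled AR1-651 stood below them. With AIL the RPKM ratio was 0.876 (0.716 to 1.07) in empty vector cells and 2.80 (2.20 to 3.62) in the cells labelled AR1-651, log2 differences of -0.18 and 1.34. This gene rests on few reads, an estimated 89 in its lowest library and 255 in its highest.

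KEAP1, the inhibitor of NRF2, had its highest level with empty vector alone. Its RPKM was 56.7, 41.8, 42.3 and 26.65 in the same order, so that the library with AIL alone and the library with the label alone were level and the library with both was lowest. The RPKM ratio with AIL was 0.737 (0.663 to 0.820) in empty vector cells and 0.630 (0.557 to 0.710) in the cells labelled AR1-651. Neither difference, -0.43 and -0.65 on the log2 scale, reached 2-fold. The difference by the label without AIL, -0.41, was -0.15 with median-ratio scaling and all but gone (-0.0036) with the trend of all genes with transcript length and GC content removed.

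GCLC and GCLM encode the catalytic and the modifier subunit of glutamate-cysteine ligase, the enzyme that limits glutathione synthesis. GCLC had RPKM of 58.0 with empty vector, 44.0 with empty vector + AIL, 22.2 in the library labelled AR1-651 and 33.8 in the library labelled AR1-651 + AIL. With AIL it was lower in empty vector cells (RPKM ratio 0.758, 0.692 to 0.831) and higher in the cells labelled AR1-651 (1.52, 1.35 to 1.71), neither past 2-fold. The second difference, 0.58 on the log2 scale, was 0.37 with median-ratio scaling and 0.24 with the length and GC trend removed. GCLM was the steadiest of the 10 apart from SRXN1, with RPKM of 12.6, 9.43, 11.1 and 11.3. The 2 subunits therefore did not share a pattern over the 4 libraries, since GCLC spanned 1.34 on the log2 scale and GCLM 0.38.

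In the thioredoxin system, TXN (thioredoxin) had the widest range. Its RPKM was 155 with empty vector, 148 with empty vector + AIL, 306 in the library labelled AR1-651 and 190.4 in the library labelled AR1-651 + AIL. With AIL the RPKM ratio was 0.953 (0.852 to 1.06) in empty vector cells, an interval that includes 1, and 0.623 (0.573 to 0.676) in the cells labelled AR1-651. TXNRD1, the reductase that recharges thioredoxin, had 95, 65.3, 100.7 and 72.4 and was lower with AIL by nearly the same amount in both backgrounds, with RPKM ratios of 0.687 (0.641 to 0.736) and 0.719 (0.676 to 0.765). Its log2 differences, -0.53 and -0.47, were the closest between the 2 backgrounds among the 10 genes, and neither reached 2-fold. SRXN1, sulfiredoxin, which repairs over-oxidised peroxiredoxins, went the other way in empty vector cells. Its RPKM was 54.6, 67.7, 59.2 and 53.3, with ratios of 1.24 (1.12 to 1.37) and 0.900 (0.817 to 0.992), and the span over the libraries was 0.34 on the log2 scale, the narrowest of the 10.

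HMOX1, the stress-inducible heme oxygenase, was low in every library. Its RPKM was 6.53 with empty vector, 6.10 with empty vector + AIL, 4.75 in the library labelled AR1-651 and 3.40 in the library labelled AR1-651 + AIL. The estimated reads ran from 35 to 61, and the intervals of both ratios with AIL, 0.934 (0.626 to 1.36) and 0.716 (0.449 to 1.13), include 1, so a difference with AIL was not detectable at this depth. OSGIN1, an inhibitor of growth, was as low, at 7.04, 8.70, 5.27 and 5.28. Its ratios with AIL, 1.24 (0.881 to 1.72) and 1.00 (0.691 to 1.49), also include 1.

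Without AIL, the library labelled AR1-651 differed from empty vector mainly in NFE2L2 and GCLC, which were lower, and in TXN, which was nearly 2-fold higher. The RPKM ratio was 0.378 (0.291 to 0.484) for NFE2L2, 0.383 (0.343 to 0.427) for GCLC and 1.97 (1.80 to 2.16) for TXN, log2 differences of -1.26, -1.34 and 0.97. Of the 10 genes 0 were at least 2-fold higher and 2 were at least 2-fold lower, against 4.01% of all genes higher and 11.6% lower. The median of the 10 genes was -0.26, beside -0.30 for all genes. It was -0.03 beside -0.09 with median-ratio scaling and 0.10 beside -0.02 with the length and GC trend removed, so its sign depends on the setting. NQO1, TXNRD1 and SRXN1 were within 0.12 of empty vector on the log2 scale, with RPKM ratios of 1.06 (1.00 to 1.11), 1.06 (0.999 to 1.12) and 1.08 (0.982 to 1.20), and each was slightly below 0 when ribosomal protein genes were left out and RPKM rescaled. With median-ratio scaling they were 0.34, 0.35 and 0.38 higher, in the same order. TXN passed 2-fold with median-ratio scaling (1.24). The split of all genes, 586 higher and 1701 lower, became 1066 and 817 with that scaling, which shifted the median of all genes by 0.22.

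With AIL in both libraries, NFE2L2, GCLC and TXN differed less by the label than without AIL, and the other 7 genes differed more on the log2 scale. Of the 10 genes 0 were at least 2-fold higher or lower, against 1.46% of all genes higher and 3.53% lower, and the median was -0.28 beside -0.03. The lowest were HMOX1, with an RPKM ratio of 0.557 (0.358 to 0.882), KEAP1 (0.638, 0.562 to 0.721) and OSGIN1 (0.607, 0.430 to 0.869), and the highest was TXN (1.29, 1.16 to 1.43). These 3 low genes have the most GC of the 10 (58.1, 60.3 and 64.7% in HMOX1, KEAP1 and OSGIN1), and the median of all genes in this comparison ran from 0.38 in the sixth with least GC to -0.50 in the sixth with most. With the length and GC trend removed, HMOX1 was 0.45 lower, KEAP1 0.18 lower and OSGIN1 0.17 lower. NFE2L2, 1.26 lower without AIL, was 0.25 higher here, with a ratio of 1.21 (0.993 to 1.47). GCLC, 1.34 lower without AIL, was 0.37 lower.

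The values of NFE2L2 and GCLC in 2 comparisons hang on the library labelled AR1-651, which both comparisons share and in which all genes differed by transcript length. The median difference of that library from empty vector reached 0.17 in the sixth with the shortest transcripts (median 878.5 nt) and -0.69 in the sixth with the longest (median 7224 nt). From that library to the library labelled AR1-651 + AIL the median ran from -0.02 to 0.33 over the same sixths, and with GC content from 0.70 in the sixth with least GC to -0.20 in the sixth with most. TXN, with a longest transcript of 869 nt the shortest of the 10, sat 0.97 above 0 where its length class had a median of 0.17. NFE2L2 (2853 nt) and GCLC (3813 nt) sat at -1.26 and -1.34, where their classes had medians of -0.23 and -0.36. After the trend with length and GC content was removed, NFE2L2 was 1.16 lower in the library labelled AR1-651 than with empty vector, and 1.03 higher with AIL in the cells so labelled. GCLC was 1.08 lower, TXN 0.71 higher, and NQO1 was 1.13 and 1.59 lower with AIL in the 2 backgrounds. GCLM, with 37.3% GC the lowest of the 10, was 0.76 lower with AIL in the cells labelled AR1-651 after this removal, in place of 0.02 higher.

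**Figure D3:**
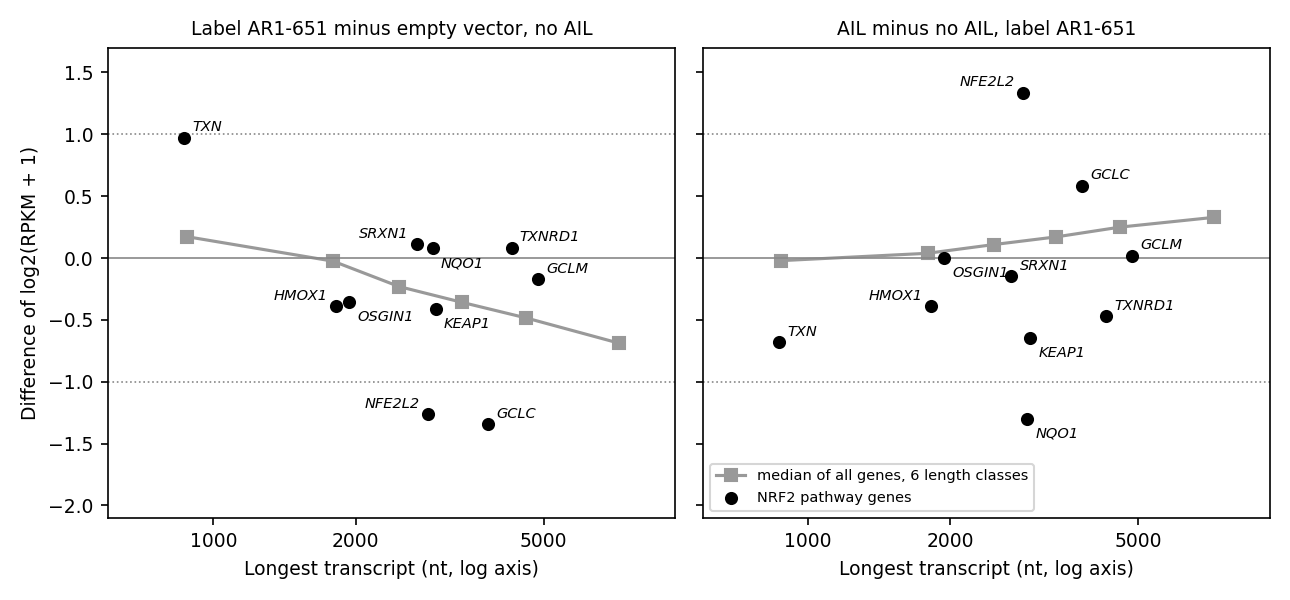
Difference of log2(RPKM + 1) of each gene against the length of its longest transcript (log axis), for the library labelled AR1-651 against empty vector without AIL (left) and for AIL in the cells labelled AR1-651 (right). Grey squares are medians of all genes in 6 classes of length, and NFE2L2 and GCLC lie further from 0 than the medians of their classes in both panels.

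GCLC and NFE2L2 were the 2 members with the widest range. Genes whose levels over the 4 libraries ran most like theirs were sought outside the lists of this report. Those lists are the members, the wider lists below and the cell type markers. The measure was Euclidean distance between log2(RPKM + 1) values centred on each gene. In all, 10680 genes had an RPKM that reached 5 in 1 library or more. Listed genes among them were left out of the ranking, so a listed gene may lie as close as those named. For NFE2L2 the closest outside the lists were MAP4K3 (distance 0.02), PHIP (0.03), ZNF800 (0.03), CHD1 (0.10) and MON2 (0.11). For GCLC they were EIF4G3 (0.11), FBXO11 (0.14), HIPK1 (0.14), HERC2P9 (0.15) and PIDD1 (0.15). With 4 points per gene, such likeness is a description only. MAP4K3, for example, had RPKM of 5.62, 4.88, 1.72 and 5.98, low in the library labelled AR1-651 like NFE2L2. The 5 genes named for NFE2L2 had longest transcripts of 4203 to 13275 nt, against 2853 nt for NFE2L2.

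Around the 10 genes, 87 genes of NRF2 regulation and antioxidant metabolism were set in 7 lists, of which 85 were in the files and 74 reached an RPKM of 1 in some library. With AIL in empty vector cells 6 of 74 were at least 2-fold higher and 8 lower, near the 9.53% and 9.03% of all genes, with a median of -0.14 beside -0.02 for all genes. In the cells labelled AR1-651, 5 were higher and 11 lower, against 14.9% and 5.74% of all genes, with a median of -0.40 beside 0.13. In both backgrounds 3 were at least 2-fold higher (SLC3A2, TXNIP and SESN2) and 5 lower (NFE2L1, SLC7A11, CHAC1, FTH1 and FTL), while 5.67% of all genes were higher and 2.93% lower in both.

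**Figure D4:**
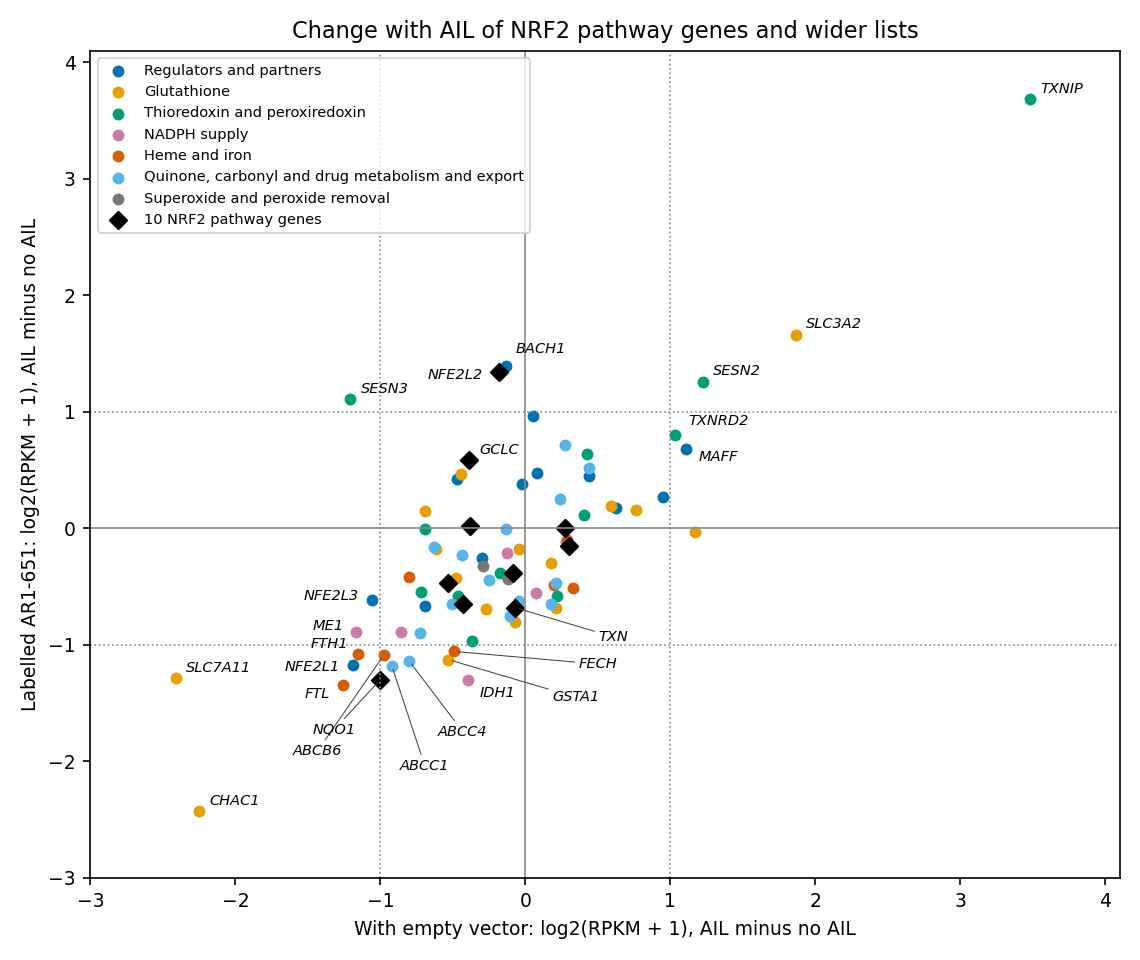
Difference of log2(RPKM + 1) with AIL in empty vector cells (horizontal) and in the cells labelled AR1-651 (vertical) for the 10 genes (black diamonds) and the 74 genes of the wider lists (circles, coloured by list). Dotted lines mark 2-fold. TXNIP stands at the upper right (3.48 and 3.68), SLC7A11 and CHAC1 at the lower left, and NQO1 near FTL, FTH1 and NFE2L1.

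TXNIP, which binds thioredoxin and blocks it, had the largest difference with AIL in these lists. Its RPKM was 134 with empty vector, 1506 with empty vector + AIL, 118 in the library labelled AR1-651 and 1529 in the library labelled AR1-651 + AIL, ratios with AIL of 11.2 (10.7 to 11.8) and 12.9 (12.3 to 13.6). Both libraries with AIL thus held more than 11 times the level of their partner. Thioredoxin itself, TXN, was not higher with AIL in either background. Of the other named genes of this list, the mitochondrial reductase TXNRD2 was 1.04 and 0.80 higher on the log2 scale, and the sestrin SESN2, a stress-induced gene, was 1.22 and 1.26 higher. The related SESN3 was 1.21 lower in empty vector cells and 1.11 higher in the cells labelled AR1-651. Freed of the length and GC trend, SESN3 was 0.28 higher in the latter.

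The glutathione list split in 2 directions. SLC7A11, the cystine importer that feeds glutathione synthesis, had RPKM of 12.9, 1.61, 8.20 and 2.77, ratios with AIL of 0.125 (0.0976 to 0.160) and 0.338 (0.278 to 0.407). SLC3A2, the heavy chain that it shares with other amino acid transporters, had 73.6, 271, 65.8 and 210.4, ratios of 3.68 (3.40 to 3.97) and 3.20 (2.96 to 3.47). The 2 chains of one transporter therefore differed from each other in direction, in both backgrounds. CHAC1, which degrades glutathione, had 5.14, 0.29, 6.80 and 0.45, and was below 1 in both libraries with AIL. No transcript length was matched to CHAC1, so it has no read estimate, no interval and no value with the trend removed. GSTA1, a glutathione transferase whose reads may be shared with close paralogs, was 0.53 and 1.13 lower. It rests on few reads, an estimated 17, 10, 42 and 16. Its ratio in empty vector cells, 0.599 (0.255 to 1.44), has an interval that includes 1. That in the cells labelled AR1-651 was 0.385 (0.196 to 0.679). The median of the 16 genes of the list was -0.17 and -0.24.

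Of the 8 measured genes of heme and iron handling, 3 were above 0 with AIL in empty vector cells and 0 in the cells labelled AR1-651, where 48.3% and 56.2% of all genes were above 0. The medians were -0.65 and -0.78, beside -0.02 and 0.13 for all genes. The ferritin heavy chain FTH1 had RPKM of 1694, 761, 1262 and 597, and the light chain FTL had 393, 164, 356 and 139, so both chains were at least 2-fold lower in both backgrounds. Reads of both can be shared with processed pseudogenes. FECH, the last enzyme of heme synthesis, was 0.49 and 1.06 lower, and ABCB6, a porphyrin transporter, 0.98 and 1.09 lower. HMOX1, the stress-inducible enzyme, did not pass 2-fold in either background.

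Of the 6 genes of NADPH supply, 2 were above 0 with AIL in empty vector cells (median -0.26) and 0 in the cells labelled AR1-651 (median -0.72), to be read against the same 48.3% and 56.2% of all genes. The malic enzyme ME1 was 1.16 and 0.89 lower. IDH1, the cytosolic isocitrate dehydrogenase, had 93.1, 70.4, 319 and 129, high in the library labelled AR1-651. Of the 15 genes of quinone, carbonyl and drug metabolism and export, 5 and 3 were above 0 (medians -0.13 and -0.47). The glutathione conjugate pump ABCC1 was 0.92 and 1.18 lower and ABCC4 0.80 and 1.14 lower. The 3 genes of superoxide and peroxide removal (SOD1, SOD2 and CAT) were below 0 in both backgrounds, with medians of -0.12 and -0.43, and 0 of them passed 2-fold.

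Among relatives and partners of NRF2, NFE2L1, a related factor known for inducing proteasome genes, had RPKM of 67.65, 29.1, 47.4 and 20.5. It was lower with AIL in both backgrounds, by 1.19 and 1.17 on the log2 scale, unlike NFE2L2. NFE2L3 was 1.06 and 0.61 lower, and the small MAF gene MAFF was 1.11 and 0.68 higher. BACH1, the heme-sensitive repressor of HMOX1, had 3.42, 3.02, 1.28 and 5.0, lowest in the library labelled AR1-651 as NFE2L2 was, and its difference with AIL in the cells so labelled was 1.40 as measured and 0.69 with the length and GC trend removed. BACH1 rests on few reads, an estimated 101, 84, 41 and 162, and NFE2L3 on 77, 26, 71 and 41. The 13 genes of this list had medians of -0.02 and 0.38.

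Without AIL, 5 of the 74 wider genes were at least 2-fold higher in the library labelled AR1-651 than with empty vector (GLRX, GLRX2, MGST2, IDH1 and HMOX2) and 3 lower (GSK3B, SESN2 and SESN3), against 4.01% and 11.6% of all genes, with a median of -0.05 beside -0.30 for all genes. Those outside the rule for named genes were named after their values were seen. With median-ratio scaling the counts were 13 and 2, where those of all genes were 1066 and 817. With the length and GC trend removed they were 9 and 0, where those of all genes were 685 and 528. With AIL in both libraries 0 of the 74 were higher and 1 lower (SESN2), against 1.46% and 3.53% of all genes.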

How the data were processed

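RNA-seq libraries of LNCaP cells, 1 for each of 4 conditions, were read as deposited. The authors sequenced them on the Illumina HiSeq2000 and deposited RPKM values with 2 decimals for 19801 genes. The submitters' processing notes name BWA 0.7.10-r789 and hg19, whereas the counting tool, the annotation release and any use of strand are not given in the sources used here. RPKM is relative to the mapped reads of a library, so genes that take many reads lower the others. Symbols were matched by Entrez Gene identifier to a RefSeq table (19703 genes). Transcript length and GC content came from GENCODE through RefSeq identifiers, for 95.8% of the 14626 genes kept (those whose RPKM reached 1 in 1 library or more) and for all 10 members. From log2(RPKM + 1), differences between libraries were taken, and 2-fold or more was counted. No test was made. Each condition has 1 library, and an additive fit of plasmid and AIL, which would leave 1 residual degree of freedom, was not run.

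Depth was estimated in single-transcript genes under 1500 nt, where RPKM multiplied by length moves in steps of 1 read. With the best step, 56.3 to 61.2% of 694 to 755 low genes per library lay within 0.15 of a whole read, against 30% for an even spread. Reads per gene, from the longest transcript, are therefore estimates, and exact (Clopper-Pearson) intervals of ratios cover counting error only.

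The 10 members and the wider lists were chosen with earlier results of these data known. Besides the members, genes of the wider lists were named when 2-fold or more different with AIL in either background, up to 4 per list by mean size. Alternatives were a threshold of 1.5-fold, median-ratio scaling, a pseudocount of 0.1, no filter, an RPKM minimum of 5, RPKM rescaled without ribosomal protein genes, and removal of a trend (polynomial of degree 3) with length and GC content. Calculations were tested on simulated data and used Python 3.11.15, NumPy 2.4.6, pandas 2.3.3 and SciPy 1.17.1. GSTM1 and GSTM4 were not analysed here, and 1 gene of the naming rule is not reported here.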

Additional observations from a re-analysis of the deposited data

Results flagged for a closer look

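In some genes the difference with AIL pointed one way in empty vector cells and the other way in the cells labelled AR1-651. These were 4 of the 10 members and 2 of the 20 wider genes named by the rule. The difference between the 2 backgrounds was not tested, since each value compares 2 libraries, and 27.8% of all genes (4070 of 14626) also had opposite signs. NFE2L2 was -0.18 and 1.34 on the log2 scale, a gap of 1.52. GCLC was -0.39 and 0.58, a gap of 0.98. GCLM was -0.38 and 0.02, a gap of 0.40 that turned on a value near 0. SRXN1 was 0.30 and -0.15, a gap of -0.45. Of the wider lists, BACH1 was -0.14 and 1.40 (gap 1.53) and SESN3 was -1.21 and 1.11 (gap 2.31). In NFE2L2, GCLC, BACH1 and SESN3 the library labelled AR1-651 was the lowest of the 4, and that library also stood apart in the trend of all genes with transcript length. With the trend with length and GC content together removed, the gap was 1.35 for NFE2L2, 0.68 for GCLC, 0.71 for BACH1, 1.27 for SESN3 and -0.44 for SRXN1. That of GCLM turned to -0.45. Length and GC content were not removed one at a time.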

How the results depend on the processing

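NQO1 kept a difference of at least 2-fold with AIL as deposited and in the 4 alternatives that alter the value of a gene (pseudocount, median-ratio scaling, rescaling without ribosomal protein genes, removal of the trend; 1.00 to 1.13 lower in empty vector cells, 1.26 to 1.59 lower in the cells labelled AR1-651). So did NFE2L2 with AIL in the cells labelled AR1-651 (1.03 to 1.47), and NFE2L2 (-1.41 to -1.03) and GCLC (-1.50 to -1.08) in the library labelled AR1-651 against empty vector. TXN reached 2-fold with AIL in the cells labelled AR1-651 only with the length and GC trend removed (1.00 lower). The sign of OSGIN1 with AIL in the cells labelled AR1-651 turned with median-ratio scaling, and that of GCLM there and for the label without AIL turned with that scaling and with the trend removed. For the label with AIL, GCLM went from 0.23 to -0.11 with the trend removed. With 1.5-fold as the threshold, 4 members passed in place of 2 for AIL in the cells labelled AR1-651, and 3 in place of 0 for the label with AIL. The wider genes then numbered 30, 36, 32 and 9 in place of 14, 16, 8 and 1 (AIL in empty vector cells, AIL in the cells labelled AR1-651, the label without AIL, the label with AIL), and all genes 6297, 6328, 6290 and 3401 in place of 2715, 3023, 2287 and 731. For the label without AIL, median-ratio scaling gave 15 wider genes, a pseudocount of 0.1 gave 3816 genes in all and removal of the trend 1213. For the label with AIL, the pseudocount gave 3 wider genes and 1669 in all, and removal of the trend 356 in all. A lower threshold or pseudocount passes more genes by construction, and the cause of the other shifts was not tested. Of the differences of single genes, 685 stayed on their side of 2-fold, 16 crossed to 2-fold or more and 11 fell short of it, with 0 called values reversed. This count takes in the settings with no filter and with an RPKM minimum of 5, which cannot alter the value of a gene. Part of the 685 was therefore fixed in advance. The estimated 35 to 89 reads of HMOX1 and OSGIN1 and of NFE2L2 in its lowest library limit what can be seen. Among the wider genes the same holds, for example, for BACH1 (41 reads in its lowest library), NFE2L3 (26) and GSTA1 (10). No paired analysis was possible because each condition has 1 library and so no replicates to pair, and an additive fit of plasmid and AIL was not run.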
